A study of Mus musculus with 6 samples.

Results

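The genes described here encode proteins that coat, fuse, build or drain the lipid droplet: the CIDE genes Cidea, Cideb and Cidec, the perilipins Plin2, Plin3, Plin4 and Plin5, and the droplet-associated genes G0s2, Abhd5 and Fitm2. The 10 members were chosen by name, with earlier knockout and wild-type values of Cidea and Cidec in liver known, so the liver comparison of genotypes is given as a description with no test. All 10 had sense tags, out of 22926 features with at least 1 sense tag, 4472 of them joint features of several genes. The libraries come from C57BL/6 mice at 6 months of age, either homozygous Atxn2 knockouts (Atxn2-KO) or wild types (WT). Atxn2 encodes ataxin-2, an RNA-binding protein. Knockout and wild type each have 1 library from cerebellum, 1 from hippocampus and 1 from liver, and every library pools 3 animals. The sample titles number the animals alike in all 3 tissues of a genotype. The tissue libraries of a genotype are therefore taken to come from the same 3 animals, which the titles do not state outright. Each tissue has 1 pool per genotype, so no difference between genotypes within a tissue has a replicate check. The assay was MACE (massive analysis of cDNA ends), which reads transcripts close to their 3' ends, so a tag count is a level per transcript without scaling by length. The sources used here do not give the animals' sex. The extraction protocol speaks of midbrain and of ages in weeks, and the sample labels, hippocampus and months, were followed here.

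A lipid droplet is a core of triglyceride and sterol ester under a single layer of phospholipid, and the proteins on that layer decide how fast the core grows or is broken down. CIDE proteins gather where droplets touch and let lipid pass from the smaller to the larger droplet, while perilipins shield the surface from lipases. In mice Cidea is known from brown fat and Cidec from white fat, Cideb is the hepatocyte form and takes part in loading lipid onto very-low-density lipoprotein, and both Cidea and Cidec are known to be scarce in lean liver and to appear in fatty liver.

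Gene tags numbered 1774523 to 2727523 per library. Atxn2 had 0, 1 and 2 tags in knockout cerebellum, hippocampus and liver, against 167, 194 and 115 in wild type. The tissue labels were checked on marker genes. Hepatocyte markers summed to 230495 CPM (tags per 1000000, scaled by the trimmed mean of M-values, TMM) in the knockout liver library and 196306 CPM in the wild-type one, against 415 to 4157 CPM in brain, and neuronal markers to 228 and 226 CPM in liver, against 5556 to 7184 CPM in brain. Genotype was accompanied by sex-biased transcripts. Xist, made from the inactive X chromosome of females, was at 0 tags in the knockout libraries of all 3 tissues, against 34, 49 and 87 in those of wild-type cerebellum, hippocampus and liver. In liver 17 of the 18 female-biased genes listed had a counting interval wholly below equality, with 114 tags in knockout liver against 7926 in wild-type liver. The parts of genotype and sex thus cannot be told apart in any comparison of knockout with wild type given here, in liver or in brain. In brain, the hepatocyte sum was 2784 CPM in knockout cerebellum against 4157 CPM in wild type, and 415 CPM in knockout hippocampus against 1804 CPM in wild type. Ttr, which the choroid plexus of the brain also expresses, was 89.2% of those tags in knockout cerebellum and 86.2% in wild-type cerebellum. Without Ttr, left out after its values were seen, the sums were 302 CPM in knockout and 573 CPM in wild-type cerebellum, and 272 CPM in knockout and 1415 CPM in wild-type hippocampus, so wild-type hippocampus was then the highest of the brain libraries.

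The upstream sequences below belong to Cidec, which had more tags in knockout liver, and to Plin2 and Cideb, the members with the most tags in liver. They are 250 bases directly upstream of annotated starts, taken from RefSeq on GRCm38.p6, printed 5' to 3' on the gene's own strand, which is the minus strand for all of them. RefSeq windows were matched to 9 of the 10 members (11 windows), and Cidea had none. Capitals mark a motif. Searched on both strands were the direct repeat DR1, a pair of AGGTCA elements with 1 base between them, bound by PPAR and other nuclear receptors, with up to 2 mismatches, and the exact TATA sequence TATAAA, which do not overlap here.
Cidec, chr6:113434765-113435014: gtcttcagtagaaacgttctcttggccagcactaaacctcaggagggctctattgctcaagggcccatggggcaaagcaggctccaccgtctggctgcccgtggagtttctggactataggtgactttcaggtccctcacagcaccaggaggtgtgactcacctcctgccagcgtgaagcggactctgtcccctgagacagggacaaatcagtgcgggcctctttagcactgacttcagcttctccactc
Cidec, chr6:113435761-113436010: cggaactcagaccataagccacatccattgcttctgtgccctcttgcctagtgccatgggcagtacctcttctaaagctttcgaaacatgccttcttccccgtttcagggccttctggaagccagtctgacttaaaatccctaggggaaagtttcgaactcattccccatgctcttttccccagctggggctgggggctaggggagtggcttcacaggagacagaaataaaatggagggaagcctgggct
Plin2, chr4:86670060-86670309: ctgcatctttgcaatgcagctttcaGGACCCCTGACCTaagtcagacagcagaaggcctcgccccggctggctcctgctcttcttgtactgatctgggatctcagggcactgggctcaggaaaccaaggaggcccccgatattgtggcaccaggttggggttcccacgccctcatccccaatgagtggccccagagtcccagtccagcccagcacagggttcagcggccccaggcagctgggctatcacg
Cideb, chr14:55758425-55758674: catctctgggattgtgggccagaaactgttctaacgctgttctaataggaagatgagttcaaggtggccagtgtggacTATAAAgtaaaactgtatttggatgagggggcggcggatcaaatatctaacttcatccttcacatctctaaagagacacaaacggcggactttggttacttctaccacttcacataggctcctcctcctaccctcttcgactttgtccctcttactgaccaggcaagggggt
The direct repeat was matched in 1 of the 11 member windows, at -225 to -213 of Plin2 with 2 mismatches on the opposite strand, and in 3.24% of all 32851 windows. TATAAA was matched in 1 of the 11, at -172 to -167 of Cideb, and in 12.4% of all windows. Neither motif was matched in the Cidec windows.

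Cidea differed most between the genotypes, and it did so in liver. It lies on chromosome 18 from 67343564 to 67367794 (GRCm38.p6) and had 146 tags in knockout liver and 1 tag in wild-type liver, which is 153 and 0.633 CPM. Cerebellum had 49 tags of it in the knockout and 38 in wild type (15.3 and 11.5 CPM), and hippocampus 36 in the knockout and 39 in wild type (12.1 and 14.1 CPM). The knockout liver library thus stood above the brain libraries and the wild-type liver library below all of them, while the 4 brain libraries lay close together. The log2 ratio of knockout to wild type was 7.92 in liver, with a 95% counting interval of 5.42 to 13.23. It was 0.41 in cerebellum (-0.23 to 1.06) and -0.22 in hippocampus (-0.92 to 0.47), and these intervals do not overlap that of liver. Counting intervals cover counting error only and not the spread between animals. In whole-tissue RNA, fewer cells of a type and less RNA per cell cannot be told apart.

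Cidec, which makes the few large droplets of white adipocytes, had the other high ratio. It lies on chromosome 6 from 113424634 to 113435760 and had 22 tags in knockout liver and 3 in wild-type liver, or 23.1 and 1.90 CPM. In brain it was barely detected, with 0 tags in both cerebellum libraries and 1 tag in each hippocampus library. A count of 0 allows up to 3 tags at this depth, so no ratio was formed there. The log2 ratio in liver was 3.60 (1.87 to 5.99), and its interval overlaps that of Cidea. Cideb, on chromosome 14 from 55754052 to 55758424, was the main CIDE transcript of both livers, with 1028 tags (1078 CPM) in the knockout against 1188 tags (752 CPM) in wild type. Its log2 ratio in liver was 0.52 (0.40 to 0.64).

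The shares of the CIDE genes are given as a description, since the liver counts of Cidea and Cidec were known when the genes were chosen, and the share of Cideb moves with them. Cideb took 86.0% of 1196 CIDE tags in knockout liver and 99.7% of 1192 in wild-type liver. Cidea took 12.2% of CIDE tags in knockout liver (exact interval 10.4% to 14.2%) and 0.0839% in wild-type liver (0.00212% to 0.467%). Cidec took 1.84% (1.16% to 2.77%) in the knockout and 0.252% (0.0519% to 0.734%) in wild type. In brain, Cidea took 47.6% to 70.0% of far fewer CIDE tags, 59 to 82 per library.

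**Figure D1:**
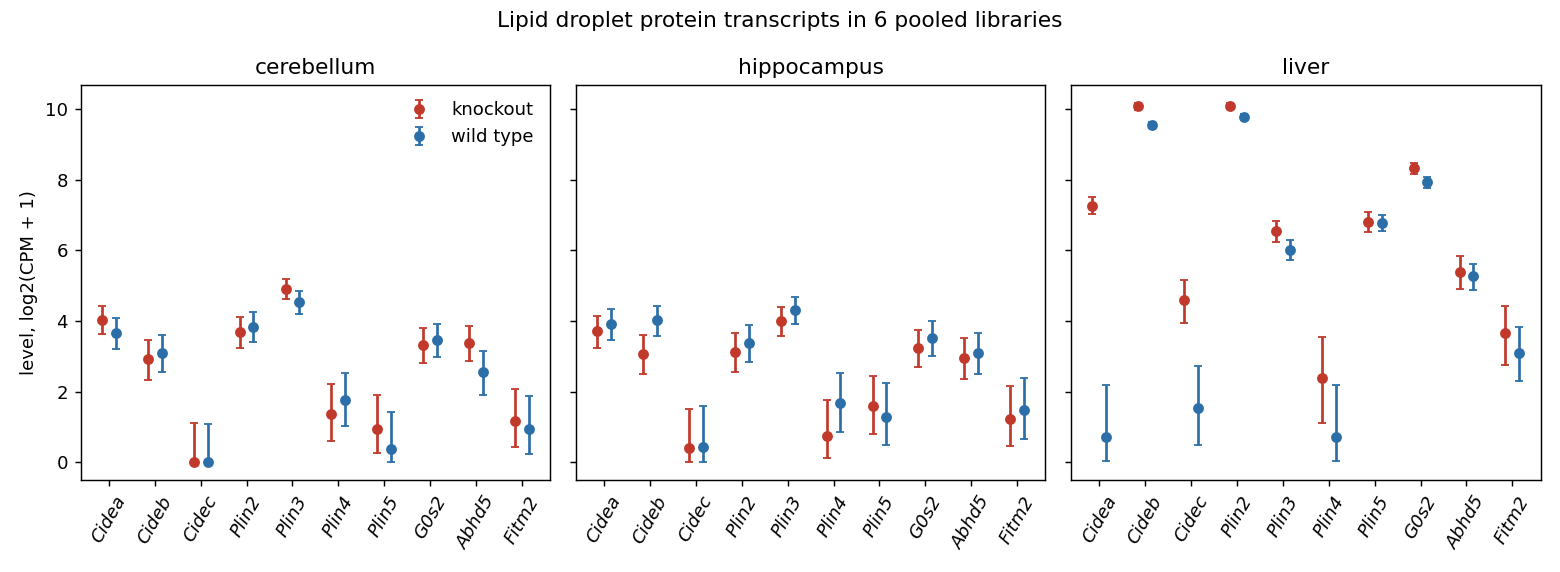
Level of each member in every library as log2(CPM + 1), with TMM-scaled CPM and bars giving exact 95% counting intervals, for knockout (left of each pair) and wild type. Cidea and Cidec are the most widely separated in liver, at 153 against 0.633 CPM and 23.1 against 1.90 CPM. The liver bars of Cideb, Plin2 and G0s2 do not overlap either. In brain the bars of every pair overlap, with Cideb at 7.39 against 15.2 CPM in hippocampus and Abhd5 at 9.39 against 4.85 CPM in cerebellum.

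Perilipins kept the same order of levels in both livers. Plin2, the general perilipin coat of hepatocyte droplets, had 1035 tags in knockout liver and 1387 in wild-type liver, or 1086 and 878 CPM. Plin5, which links droplets to mitochondria in oxidative tissues, had 106 and 172 tags, or 111 and 109 CPM. Plin3, which is cytosolic until it binds nascent droplets, had 88 and 100 tags, or 92.3 and 63.3 CPM. Plin4, a perilipin of adipocytes and muscle, was at 4 tags in knockout liver and 1 tag in wild-type liver. Plin2 thus took 83.9% of perilipin tags in knockout liver (exact interval 81.8% to 85.9%) and 83.6% in wild-type liver (81.7% to 85.3%), and these intervals overlap.

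The log2 ratios in liver were 0.31 for Plin2 (0.19 to 0.42), 0.54 for Plin3 (0.11 to 0.97) and 0.03 for Plin5 (-0.33 to 0.39). Plin4 was at 2.73, with an interval from -0.61 to 8.35 that includes equality. The intervals of Plin2 and Plin3 are above 0. All 8159 liver features with a mean of at least 10 CPM had a median of -0.03, and the 520 features with at least 500 CPM, the range of Plin2 and Cideb, had a median of 0.16 with quartiles of -0.01 and 0.34. The ratio of Plin2 lies within those quartiles and that of Cideb above them.

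The genes that act on the droplet lipase had smaller ratios between the livers than Cidea and Cidec. G0s2 inhibits adipose triglyceride lipase, the product of Pnpla2, and had 303 tags in knockout liver and 381 in wild type, or 318 and 241 CPM. Abhd5, the co-activator of the same lipase, had 39 and 59 tags, or 40.9 and 37.4 CPM. Fitm2, a protein of the endoplasmic reticulum that helps lipid enter droplets, had 11 and 12 tags, or 11.5 and 7.60 CPM. The log2 ratios were 0.40 for G0s2 (0.18 to 0.62), 0.13 for Abhd5 (-0.49 to 0.74) and 0.60 for Fitm2 (-0.72 to 1.91). Only the interval of G0s2 among these genes excludes equality.

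The order of levels was much the same in both livers apart from Cidea and Cidec. In the knockout, Plin2 and Cideb were highest and their counting intervals overlapped, followed by G0s2 and then by Cidea, Plin5 and Plin3, where neighbouring intervals overlapped. Abhd5, Cidec, Fitm2 and Plin4 came last. In wild type the order was Plin2, Cideb, G0s2, Plin5, Plin3, Abhd5 and Fitm2, with no overlap between neighbours, and the intervals of Fitm2, Cidec, Cidea and Plin4 each overlapped the next. Cidea was thus 4th in knockout liver and shared the lowest count with Plin4 in wild-type liver.

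A size rule was applied to every feature of a tissue, namely a log2 ratio of 1 or more in size, 10 CPM or more on average and a counting interval that excludes equality. In liver 8 of the 10 members had at least 10 CPM, and Cidea and Cidec were past the rule as higher, against 1.42% of 8159 features higher and 3.53% lower. Since the liver values of both were known when the genes were chosen, nothing is read from that count. With library totals in place of TMM, only Cidea was past the rule, because the mean of Cidec was then under 10 CPM. Over all liver features the rule gave 116 higher and 288 lower with TMM. Library totals gave 54 higher and 248 lower, and DESeq2 size factors gave 164 higher and 207 lower. The counting interval lay above 0 for 6 members (Cidea, Cideb, Cidec, Plin2, Plin3 and G0s2) and below 0 for 0 members. Of features with a mean of at least 10 CPM, 11.8% were above and 10.9% below. Features with many tags have narrow intervals, and hepatocyte markers had 12 of 15 intervals above 0 with a summed log2 ratio of 0.23.

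**Figure D2:**
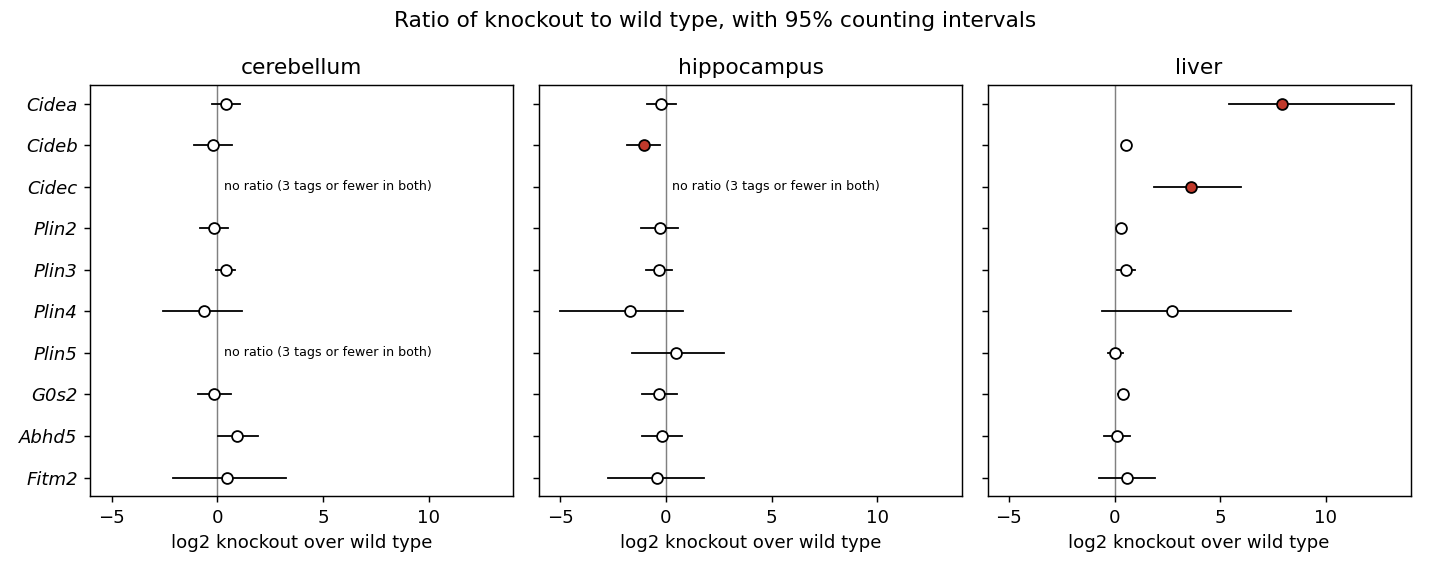
Log2 ratio of knockout to wild type for each member (rows) in the 3 tissues, with exact 95% counting intervals as bars and filled points past the size rule. In liver Cidea (7.92) and Cidec (3.60) are far to the right of the other members, and in hippocampus Cideb (-1.04) is the filled point.

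Markers of fat cells were set beside the liver values of Cidea and Cidec. Of 12 adipocyte genes listed, 9 had tags in any library, and 9 of them in knockout liver and 7 in wild-type liver, with summed levels of 2893 and 1773 CPM. Most of that sum was Car3, at 2110 and 2112 tags, which hepatocytes also express, as they do Pck1 and Cd36. Tags are not scaled, and equal tags mean a higher level in knockout liver, whose library had 1774523 gene tags against 2727523. The log2 ratio of the summed list was 0.71 (0.63 to 0.78), with 3 of 9 intervals above 0 and 0 below. The adipocyte hormones Adipoq and Retn had 1 and 2 tags in knockout liver and 0 and 0 in wild type. Cfd, the adipocyte protease adipsin, had 10 tags in knockout liver and 11 in wild-type liver. Fabp4, a fatty acid carrier of adipocytes, had 23 and 24 tags, or 24.1 and 15.2 CPM, beside 22 tags of Cidec in the knockout. Lpl had 31 tags in knockout liver and 66 in wild-type liver, or 32.5 and 41.8 CPM, and Slc7a10 had 1 tag in each. The part of fat cells in the liver values of Cidea and Cidec was not tested. Ucp1, the uncoupling protein that defines brown fat, had 0 tags in both livers. Of 8 brown adipocyte genes listed, 7 had tags in any library, and Cox8b, Dio2 and Otop1 were also at 0 in knockout liver, with 1, 1 and 0 tags in wild type. The brown list summed to 915 CPM in knockout liver and 597 CPM in wild-type liver, nearly all of it Elovl3 (841 and 890 tags), which liver expresses too. Cox7a1 had 25 tags in knockout and 30 in wild-type liver, and Ppargc1a 6 and 20. The female-biased list was at 120 CPM in knockout liver and 5019 CPM in wild-type liver. In the liver values of Cidea and Cidec, as in those of every other gene, the parts of genotype and sex cannot be told apart.

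**Figure D3:**
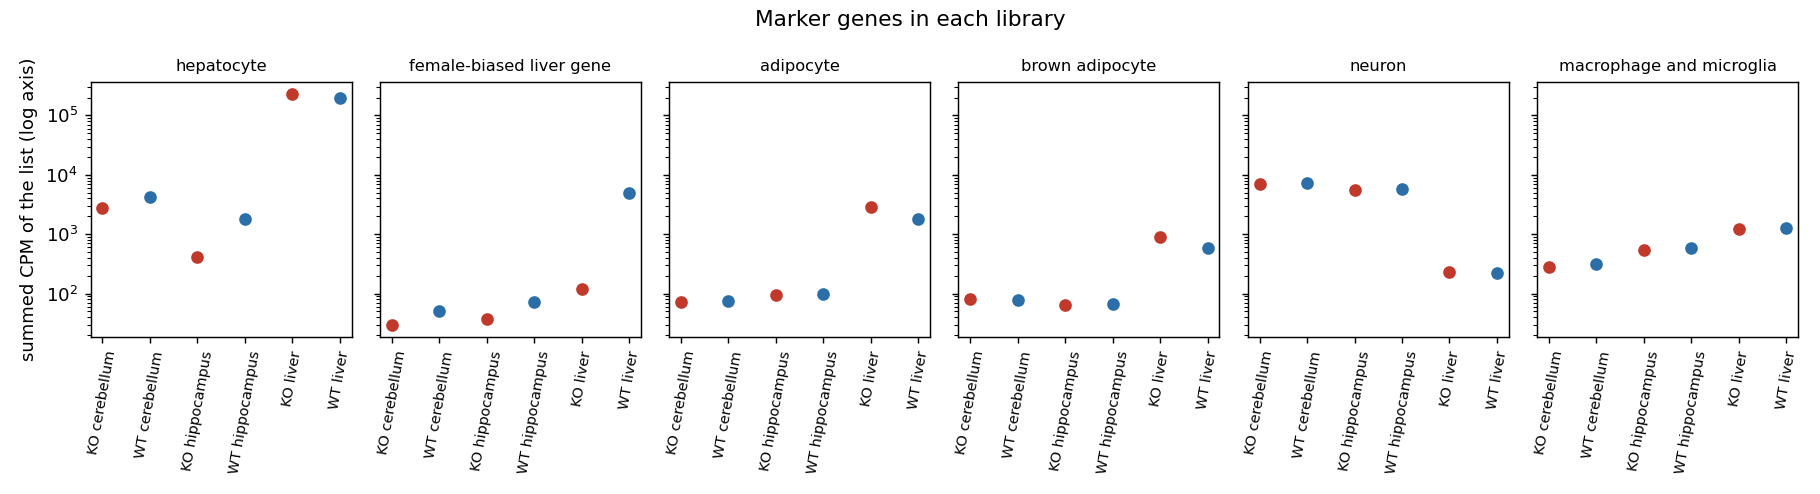
Summed CPM (log axis) of the hepatocyte, female-biased liver, adipocyte, brown adipocyte, neuron, and macrophage and microglia lists in the 6 libraries. Red is knockout and blue is wild type. The female-biased liver list is at 120 CPM in knockout liver and 5019 CPM in wild-type liver, and the hepatocyte list at 415 CPM in knockout hippocampus and 1804 CPM in wild-type hippocampus.

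The members were mostly liver transcripts. Liver was compared with the mean of both brain tissues over all 6 libraries with genotype as a term (edgeR quasi-likelihood test, Benjamini-Hochberg adjustment over 12906 features). Of the 10 members, 8 passed the filter on low counts, and 8 were called higher in liver at an adjusted p under 0.05, beside 33.8% of features called higher, 36.4% lower and 70.2% either way. Plin5 and Fitm2 passed the filter through their liver counts alone and so had to differ, and the liver counts of Cidea were known beforehand, so these 3 are described without their p-values and nothing is read from the count. Cidec and Plin4 did not pass the filter of this fit. DESeq2, which gave an adjusted p for all 10 members, called 8 higher, with Cidec among them (log2 5.83, SE 1.41) and without Cidea and Plin4. edgeR without the filter called 9, with Cidec at 6.24 (SE 0.90). Cidec had 0 or 1 tag in the brain libraries and liver counts that were known, so its values are a description too. The 2 libraries of a tissue differ in genotype, and the tissues are taken to share pools. These p-values thus measure the agreement of the genotypes and not the spread between animals.

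Cideb, Plin5 and Plin2 were the most liver-rich, at log2 6.67 (SE 0.23, adjusted p = 1.35e-16), 6.66 (SE 0.27) and 6.55 (SE 0.19, adjusted p = 2.83e-17, edgeR). In brain, Plin2 had 23 tags in knockout and 26 in wild-type hippocampus, and 38 in knockout and 44 in wild-type cerebellum. Plin5 had 6, 4, 3 and 1 tags in the same libraries, and Cideb 22, 42, 21 and 25. Hepatocyte markers without Ttr summed to 272, 1415, 302 and 573 CPM in the same libraries. The part of liver transcripts in these brain counts, and so in the differences between liver and brain, was not tested. G0s2 followed at 4.86 (SE 0.18, adjusted p = 3.73e-16, edgeR), with 25 to 33 tags in the brain libraries. Fitm2 was at 2.80 (SE 0.53), Abhd5 at 2.47 (SE 0.27) and Plin3 at 1.87 (SE 0.20), so the lipase co-activator, the assembly protein and Plin3 were the most evenly spread of the members with one direction in both livers.

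Cidea was the exception among them, since its direction between liver and brain depended on the liver library. Its values are given without p, since they rest on the liver counts that were known. With all libraries it was at 2.06 (SE 0.56). Without the wild-type liver it was at 3.47, and without the knockout liver at -4.25, which is lower in liver. For the other 7 tested members both leave-outs kept the same sign. Cidea was not called by DESeq2 (log2 1.54, SE 1.77), nor by edgeR without the knockout cerebellum (1.22) or with library totals (0.74). On the library-total scale Cidea was at 82.3 CPM in knockout liver and 0.367 CPM in wild-type liver, against 15.4 to 21.4 CPM in the brain libraries. The scaling matters between tissues, since the median of all features was -0.16 with TMM and -1.41 with library totals, where 2159 features were called higher and 8614 lower, in place of 4368 and 4693. The other members were above those medians with either scaling.

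**Figure D4:**
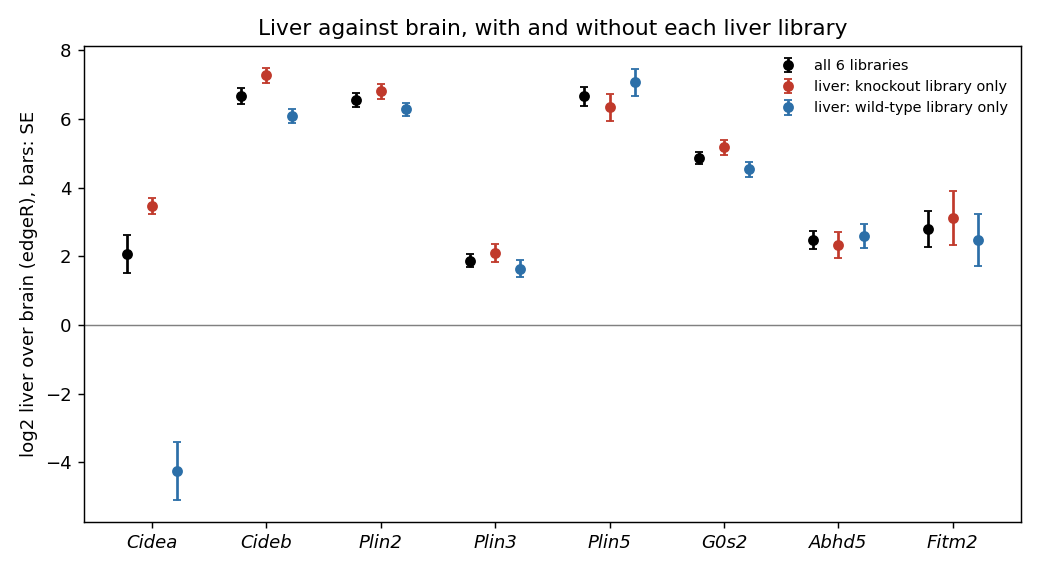
Log2 difference of liver over brain for the 8 tested members, with edgeR standard errors as bars, over all libraries (black), with the knockout liver alone (red) and with the wild-type liver alone (blue). Cidea is at 3.47 with the knockout liver and at -4.25 with the wild-type liver, and the other 7 members stay above 0.

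In brain, Plin3 was the perilipin with the most tags in all 4 libraries. Plin3 had 45 tags in knockout and 52 in wild-type hippocampus, and 93 in knockout and 73 in wild-type cerebellum, with 59.2%, 59.1%, 66.9% and 57.9% of perilipin tags. In liver it took 7.14% and 6.02%. No member of the 8 tested differed between hippocampus and cerebellum at an adjusted p under 0.05 (edgeR), beside 29.3% of features (15.8% higher and 13.5% lower), and 1 member, Plin3, had an unadjusted p under 0.05. DESeq2 called 0 members, with 0 under an unadjusted 0.05. The values of other members were 1.42 for Plin5 (SE 0.76), 0.66 for Cideb (SE 0.38) and -0.56 for Plin2 (SE 0.31). Plin3 was at log2 -0.59 (SE 0.24, adjusted p = 0.0755), lower in hippocampus in both genotypes. Its adjusted p was 0.02 to 0.755 over the alternatives, and it passed without the knockout liver (0.0225), without the wild-type liver (0.0217), without the wild-type hippocampus (0.02) and with library totals (0.0358). The genotype term of this fit is shared by all tissues, liver included. With 1 hippocampus library left, the liver ratio of Cidea thus enters its value. Without the knockout hippocampus, Cidea was at 1.60 and Cideb at 1.28, and without the wild-type hippocampus Cidea was at -1.25. Without the knockout liver Cidea was at -0.034, and without the wild-type liver at -0.035. Nothing is read from its change of sign, since its liver counts were known. The part of liver transcripts in the Cideb difference between these tissues was not tested.

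Knockout and wild type were tested in the 4 brain libraries with tissue as a term, leaving out liver (edgeR, 12036 features). Of the 6 members that passed the filter, 0 were called, beside 0.881% of features (0.141% higher and 0.739% lower), and 1 had an unadjusted p under 0.05. DESeq2 called 0 of the 2 members for which it gave an adjusted p, with 0 under an unadjusted 0.05. The fit has 1 residual degree of freedom, and both tissues of a genotype are taken to come from the same numbered animals. On that reading the test rests on 1 pool per genotype. Its p-values measure agreement between the tissues, not the spread between animals. Xist differed between the pools in both brain tissues, so genotype and sex cannot be told apart in this test either. The member with the low p was Cideb, at log2 -0.67 (SE 0.33, unadjusted p = 0.0468, adjusted p = 0.678). Its adjusted p was 0.622 to 0.843 over the alternatives of edgeR, and DESeq2 gave none. Cidea was at 0.11 (SE 0.27, adjusted p = 0.988), Plin2 at -0.21 (SE 0.29), Plin3 at 0.10 (SE 0.23), G0s2 at -0.23 (SE 0.31) and Abhd5 at 0.40 (SE 0.37). A p above the threshold does not show that these levels were alike.

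Within hippocampus, Cideb was at 22 tags in the knockout library and 42 in the wild-type one, and its log2 ratio of -1.04 (-1.86 to -0.26) was the 1 member value past the size rule, beside 0.453% of 8606 features higher and 1.06% lower. Its interval was the only one of a member below 0 there, with 0 above. Of features with a mean of at least 10 CPM, 12.5% were above and 10.5% below, and 3 of the 10 members had that mean. Hepatocyte markers moved the same way in those libraries, with 14 of 14 detected markers having an interval below 0 and a summed log2 ratio of -2.12. Albumin had 458 and 2465 tags. The part of liver transcripts in the hippocampal Cideb value was not tested. In cerebellum, Cideb had 21 and 25 tags, and 0 of the 3 members with at least 10 CPM were past the rule, beside 0.14% of 8576 features higher and 0.315% lower. Abhd5 had 30 and 16 tags there, with a ratio of 0.95 whose interval (0.03 to 1.93) narrowly excludes equality. Of features with a mean of at least 10 CPM, 7.01% had an interval above 0 and 8.09% below. Abhd5, with a mean of 7.12 CPM, is not among those features.

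Lists of genes around the droplet were set beside the members in liver, by the same size rule and with no test. That rule gave 1.42% of 8159 liver features higher and 3.53% lower, and genotype and sex cannot be told apart in these ratios. Among PPAR-alpha targets, the fat-burning genes that fasting induces, 0 of 19 genes with at least 10 CPM were higher and 5 lower by the rule. Their median log2 ratio was -0.39 against -0.03 for all features. Counting intervals lay above 0 for 4 of the 19 and below 0 for 10, beside 11.8% and 10.9% of features. The lower genes were the thioesterases Acot1 (24 and 158 tags, log2 -1.99) and Acot2 (9 and 66, -2.15), the omega-hydroxylases Cyp4a10 (150 and 981, -1.98) and Cyp4a14 (133 and 878, -1.99) and the peroxisomal enzyme Ehhadh (238 and 899, -1.19). The highest was the pantetheinase Vnn1 at 0.87. Plin2, itself known as a PPAR-alpha target in mouse liver, was at 0.31 in the same libraries.

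Triglyceride synthesis had 1 of 8 genes higher and 0 lower, with a median of 0.31. The higher gene was Gpam, the mitochondrial acyltransferase that starts the pathway, with 32 tags in knockout liver and 18 in wild type (1.56, interval 0.68 to 2.48). Lpin1, a phosphatidate phosphatase, was lowest at -0.70, and Dgat2, which makes the final triglyceride, was the most abundant at 0.33. Droplet assembly and lipoprotein lipidation had 1 of 13 genes higher, 0 lower and a median of 0.21. That gene was Fitm1, the relative of Fitm2, with 259 and 142 tags (1.60, interval 1.29 to 1.90), beside 0.27 for Apob, the most abundant, and -0.22 for the acyl-CoA synthetase Acsl3, the lowest. Fitm1 had 0 tags in both hippocampus libraries and 2 and 1 in knockout and wild-type cerebellum.

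Lipases and other droplet hydrolases had 0 of 13 genes past the rule and a median of 0.28, from 0.44 for the monoglyceride lipase Mgll to -0.26 for the lysosomal lipase Lipa, with Ces3a the most abundant at 0.43. Pnpla2, the lipase that G0s2 and Abhd5 control, was named after its value was seen, and had 103 and 137 tags (0.32, interval -0.07 to 0.70). Fatty acid synthesis had 0 of 12 past the rule and a median of 0.12, with Fasn, the fatty acid synthase, highest at 0.83, Acacb, the mitochondrial acetyl-CoA carboxylase, lowest at -0.78, and Scd1, the stearoyl-CoA desaturase, the most abundant at 0.15. PPAR-gamma targets of fatty liver had only 4 of 11 genes with at least 10 CPM, 0 of them past the rule, and a median of 0.45, from 0.67 for Fabp4 to -0.36 for the lipoprotein lipase Lpl, with Apoa4 the most abundant at 0.56. That list names Cidec under an older symbol that is not counted here.

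Among transcription factors of droplet protein genes, 1 of 14 was higher, 0 were lower, and the median was 0.20. The higher gene was the repressor Bcl6, with 62 tags in knockout liver and 21 in wild type (2.29, interval 1.56 to 3.08), which is known as a male-biased gene in mouse liver. Srebf2 was lowest at -0.51 and Cebpa the most abundant at 0.18. The nuclear receptors Pparg and Ppara, named after their values were seen, had 24 and 32 tags (0.31, interval -0.51 to 1.12) and 198 and 288 tags (0.19, interval -0.08 to 0.45). The lists were chosen with earlier results of these data known, so their counts are descriptions.

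**Figure D5:**
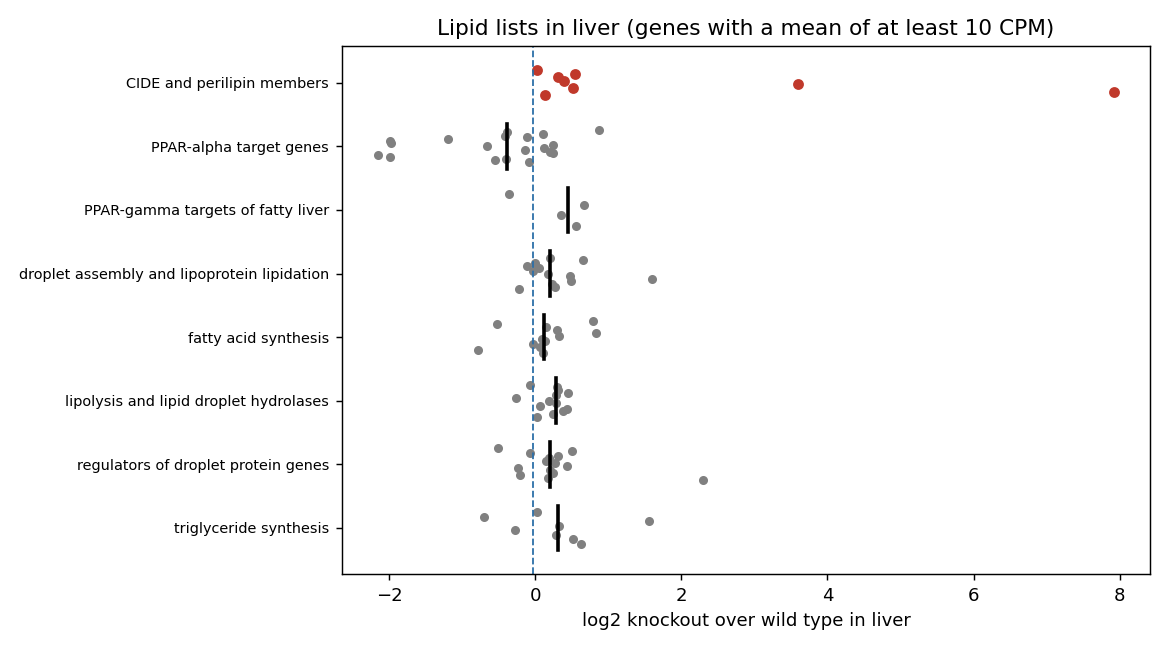
Log2 ratio of knockout to wild type in liver for members (red) and for genes of 7 lipid lists (grey) with a mean of at least 10 CPM. Black bars are list medians and the dashed line is the median of all such features, -0.03. Cidea and Cidec lie beyond every gene of the lists, and PPAR-alpha targets have the lowest median, -0.39.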

How the data were processed

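MACE libraries of pooled RNA were analysed from the authors' combined table, which holds raw, unscaled counts of sense and antisense tags per RefSeq record as deposited. CASAVA 1.8.2 and mm9 appear in the submitters' processing notes, while the table itself names a GRCm38 set. Which aligner was run is not stated in these sources. Coordinates are those of RefSeq on GRCm38.p6. Rows without a gene record took 29.8% to 38.4% of tags and were left out. Sense counts were summed per symbol, the last name in parentheses of each record. A row of several records went to its named gene when the others were predicted genes or pseudogenes, which added 3 tags to Plin5, and otherwise stayed a joint feature. CPM uses TMM factors over the 6 libraries.

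Fits used edgeR 4.0.16 (quasi-likelihood, filterByExpr, threshold 0.05) and were tested on simulated data, with DESeq2 1.42.0 as the alternative. Intervals are exact 95% (Clopper-Pearson or Poisson) and cover counting error only. Ratios were not formed where both counts were 3 or fewer. Each library has a single replicate per group, so p-values measure only the spread between these libraries.

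The members and lists were chosen with earlier results of these data known. All members are named. Of each list the highest, lowest and most abundant in liver and those past the size rule are named. One result that this rule would name is not reported here. Alternatives were other scalings, filters, size limits, rows of 1 symbol, the single highest row, no genotype term and each library left out. A fit of genotype over all 3 tissues was not made, since its liver libraries were known when the members were chosen.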

Additional observations from a re-analysis of the deposited data

Results flagged for a closer look

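Cideb had opposite ratios in hippocampus and liver, each with a counting interval that excludes equality. The log2 ratio of knockout to wild type was -1.04 in hippocampus and 0.52 in liver. The difference between the tissues was not tested, since each has 1 library per genotype. Hepatocyte markers had summed log2 ratios of -2.12 and 0.23 in the same tissues, and their part in the Cideb values was not tested.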

How the results depend on the processing

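Of the 108 ratios of single members recomputed with other scalings or row rules, 108 stayed within their counting interval. Cidea was called higher in liver than in brain with all libraries, and leaving out 1 library gave log2 differences of -4.25 without the knockout liver to 3.47 without the wild-type liver; the lone liver library is assumed to vary like the other tissues. For the other 7 of the 8 members tested with all libraries, leaving out 1 library kept the difference above 0. Between hippocampus and cerebellum, Cidea went from -1.25 without the wild-type hippocampus to 1.60 without the knockout hippocampus. In both, the known liver ratio of Cidea enters through the shared genotype term. Without the knockout liver Cidea was at -0.034, and without the wild-type liver at -0.035. With all libraries 8 members were called between liver and brain and 0 between hippocampus and cerebellum. With library totals 1 member, Plin3, was called between hippocampus and cerebellum. Past the size rule in liver were 2 members, against 1 with library totals and 4 with an absolute log2 ratio of at least 0.5. Over all features, hippocampus against cerebellum gave 2040 higher and 1745 lower, against 991 and 657 by DESeq2, 1043 and 828 without the knockout cerebellum and 1024 and 828 without the wild-type cerebellum. Knockout against wild type in brain gave 17 higher and 89 lower, against 3 and 66 with either other scaling and 1 and 13 by DESeq2. In cerebellum 12 features were higher and 27 lower, against 34 and 45 with library totals. No paired analysis was possible because knockout and wild type have 1 pool each and their animal numbers do not tie animals across genotypes. The genotype term blocks the tissue comparisons by pool if the tissues share animals. Without that term they gave the same counts of members, 8 and 0. Depth limits Cidec, Plin4 and Fitm2, which had 1 to 12 tags or none in most libraries, and a count of 0 allows up to 3. It also limits Plin5 in brain, where each library had 1 to 6 tags.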

Other observations

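Antisense tags were seen at Plin3, with 25 over the 6 libraries, at Abhd5 with 2 and at Plin5 with 1, and none were counted at the other members. Of those at Plin3, cerebellum had 8 in the knockout and 5 in wild type, hippocampus 5 in either genotype, and liver 0 in the knockout and 2 in wild type.

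Over the 6 libraries, the features with a pattern of log2(CPM + 1) most like that of Plin2 were Fh1, H6pd, Fn1, Akr1c14 and Acly, with Pearson's r of 0.9996 or more. The 6 points share tissues and scaling, and such patterns separate liver from brain. For Cidea the closest were Phf1, Tmub1, Gcc1, Tomm40 and Wdsub1, with r from 0.95 to 0.98. Phf1 had 10 tags in knockout liver against 6 in wild type and Tmub1 24 against 16, where Cidea had 146 against 1. These tags are not scaled, and the wild-type liver library had more gene tags, 2727523 against 1774523 in the knockout.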
